A study of Mus musculus with 9 samples.

Results

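Genes of fatty acid oxidation and of the peroxisome were followed in mouse brain tumor stem cells (BTSC) after the gene Gpd1 had been targeted with Cas9. The 43 genes were chosen by symbol from pathway membership, with earlier results of these data known, and all 43 were found among the 21899 genes of the deposited table. They comprise 6 genes of the carnitine shuttle, 7 of acyl-CoA dehydrogenation and electron transfer, 7 of the later mitochondrial steps, 9 of peroxisomal oxidation, 11 peroxins and 3 regulators. All 43 had a mean of at least 10 normalized read counts over the libraries, and so entered the test.

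Mitochondrial beta-oxidation shortens fatty acids that reach the matrix as carnitine esters, and each round removes acetyl-CoA in a cycle of dehydrogenation, hydration, a further dehydrogenation and thiolysis. Peroxisomes run a parallel pathway on very long, branched and dicarboxylic chains, in which an oxidase makes hydrogen peroxide that catalase breaks down. Peroxins build the organelle and import its enzymes, and nuclear receptors of the PPAR family, with the coactivator encoded by Ppargc1a, are known to switch on many of these genes in liver, muscle and fat. In brain, fatty acid oxidation is best known from astrocytes and neural stem cells.

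Poly(A) RNA had been sequenced in 9 libraries, with 3 in each of the groups sgRNA1 KO, sgRNA2 KO and control. The knockout (KO) groups held BTSC transfected with a Cas9 vector carrying guide sgRNA1 or sgRNA2 against Gpd1, which encodes the cytosolic glycerol-3-phosphate dehydrogenase. Per the labels' protocols they were selected with puromycin and expanded from colonies of a single cell, and knockout was checked by DNA sequencing and Western blot. The control group held BTSC with no stated edit. Values given with sgRNA1 or with sgRNA2 are normalized read counts of that KO group in the order of its replicates. The labels give no mouse strain, age or driver of the tumor, and do not say whether controls had been selected or picked as colonies or whether replicates were separate cultures. The p-values therefore measure the spread between these libraries, which may be technical. Titles of the KO libraries carry numbers other than the replicate numbers, which may name colonies. The spread within KO may thus also hold differences between colonies. If the controls went without transfection, selection and colony picking, these steps cannot be told apart from the edit in KO against control.

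Library totals lay between 39781901 and 42975283 normalized read counts. Gpd1 stood at 12.8%, 5.21% and 82.6% of its control mean in sgRNA1 KO replicates 1 to 3 and at 41.8%, 41.8% and 26.9% in sgRNA2 KO. Its difference of -1.99 on the log2 scale had an exact two-sided permutation p = 0.0476 over 84 splits, of which the smallest possible is 0.0119, and an adjusted p of 0.0516 in limma. An edited gene can still be transcribed, so this RNA level does not check the edit itself. The KO libraries most like the controls across genes were replicate 3 of sgRNA1 KO and replicate 1 of sgRNA2 KO (r from 0.962 to 0.972, against 0.909 to 0.945 for the other 4). The count of called genes is therefore also given without both. The median SD of the 43 genes on the log2 scale was 0.196 with sgRNA1 and 0.238 with sgRNA2, against 0.0558 in control.

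Summed stem cell markers (8 of 8 in the table) lay between 188623 and 280701 in KO libraries, against 301195 to 343763 in control. Summed astrocyte markers (10 of 10) lay between 174706 and 358694 in KO, against 119341 to 129824 in control. Summed proliferation markers (10 of 10) lay between 23825 and 105358 in KO, against 157230 to 165152 in control. For these 3 lists no KO library overlapped the controls: the astrocyte sums were higher, and the stem cell and proliferation sums lower. Single markers differed: in KO against control, 2 of the 8 stem cell markers were called higher and 3 lower (limma, adjusted p under 0.05). Of the 10 astrocyte markers 4 were called higher and 0 lower, and of the 10 proliferation markers 0 higher and 6 lower. Of all genes tested, 19.1% were called higher and 20.2% lower. Oligodendrocyte lineage markers (10 of 10) summed to 121611 to 156522 in KO, against 113447 to 122228 in control, and neuron markers (8 of 10) to 47898 to 126796 in KO, against 42949 to 44244. Microglia and macrophage markers (6 of 8) summed to 77 to 96 in KO, against 89 to 117 in control. Endothelial markers (6 of 8) summed to 180 to 316 in KO, against 662 to 705, pericyte and fibroblast markers (6 of 8) to 78 to 396 in KO, against 2238 to 2396, and ependymal markers (7 of 8) to 1778 to 3136 in KO, against 4569 to 4939. In every KO library the neuron sum was also above all controls, and the endothelial, pericyte and fibroblast, and ependymal sums were below them. None of the markers in the table was at 0 in all KO libraries or in all controls. In bulk RNA, more or fewer cells of a type cannot be told apart from more or less RNA per cell. The part of these shifts in the results that follow was not tested.

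When both guides were pooled and set against control (6 and 3 libraries), 19 of the 43 genes rose and 0 fell (limma, Benjamini-Hochberg adjusted p under 0.05 over the 15827 genes tested). That is 44.2% of the 43 genes, where 19.1% of all genes tested were called higher and 20.2% were called lower. The median log2 fold change of the 43 genes was 0.33, against -0.01 over all genes tested. For 24 of the 43, every KO library lay above every control, which held for 21.1% of all genes tested, and for 0 of the 43 every KO library lay below every control, against 23.8%. The risen genes spanned every role: 2 of 6 in the carnitine shuttle, 5 of 7 in acyl-CoA dehydrogenation and electron transfer, 3 of 7 in the later mitochondrial steps, 5 of 9 in peroxisomal oxidation, 2 of 11 peroxins and 2 of 3 regulators. The count of 19 became 11 without control replicate 2 and 11 without control replicate 3, when 17.5% and 19.0% of all genes were called in either direction, against 39.3% with all libraries. Without both libraries nearest the controls, 21 of the 43 genes rose and 0 fell. In that fit calls over all genes also went up, to 23.3% higher and 25% lower. The largest log2 fold change among the risen genes was 0.91.

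**Figure D1:**
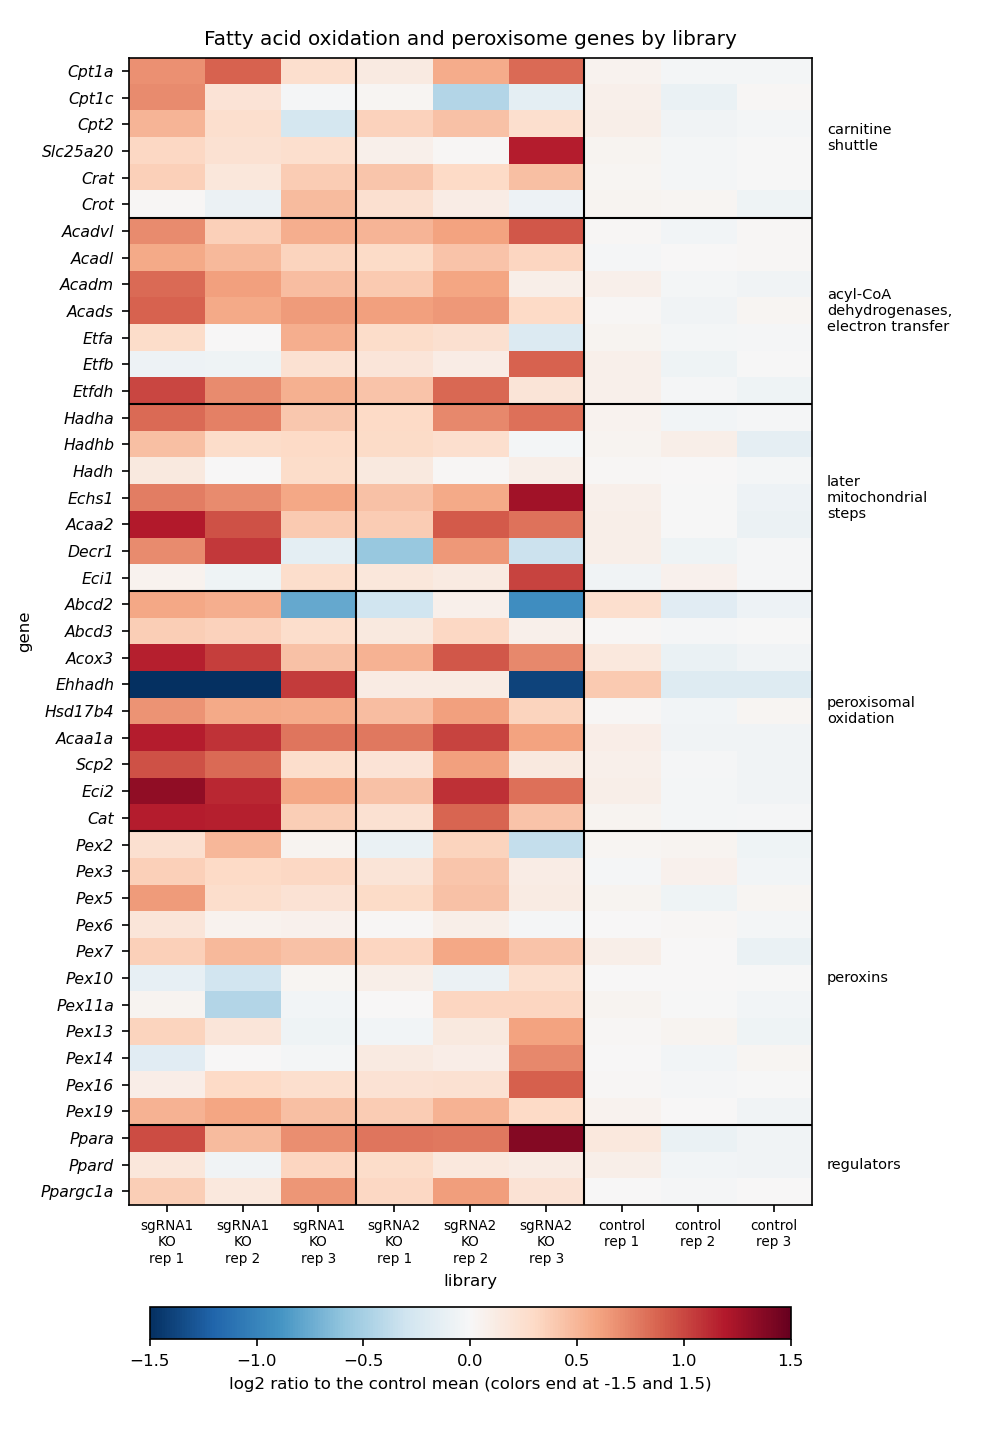
Log2 ratio of each of the 43 genes to its control mean (color, ending at -1.5 and 1.5) in each library (columns: sgRNA1 KO, sgRNA2 KO, control), with genes grouped by role. Most genes are above the control mean in the KO columns, while others, such as Ehhadh, Abcd2, Decr1, Cpt1c and Pex11a, differ in sign between KO libraries.

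Per kilobase of annotated exon, the highest levels belonged to Acadl, at 10697 normalized read counts per kilobase in KO and 8053 in control. Hsd17b4 had 3350 per kilobase in KO and 2302 in control, Acaa2 had 3558 in KO and 2036 in control, and Etfa had 2355 in KO and 2044 in control. At the low end, Ppara had 84.5 per kilobase in KO and 45.9 in control, Abcd2 59.7 in KO and 60.8 in control, and Ehhadh 4.75 in KO and 5.93 in control. The order of levels is a description and was not tested. Annotated exons include rare transcript forms, which lower the value of long genes such as Pex7 and Acox3.

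The carnitine shuttle moves fatty acyl groups across the mitochondrial membranes. Cpt1a encodes the carnitine palmitoyltransferase of the outer membrane, the main control point of entry, and had normalized read counts of 7032, 8016 and 5167 with sgRNA1 and 4770, 6405 and 7878 with sgRNA2, against 4537, 4264 and 4274 in control. All KO libraries lay above all controls, and sgRNA2 KO replicate 1 lay nearest to them (log2 fold change 0.56, SE 0.17, adjusted p = 0.0301 in limma). The call was lost without sgRNA1 KO replicate 1, sgRNA2 KO replicate 2 or control replicate 1, 2 or 3 (adjusted p from 0.0529 to 0.103 in limma). Crat, which encodes the carnitine acetyltransferase of mitochondria and peroxisomes, had 5945, 5197 and 6022 with sgRNA1 and 6189, 5716 and 6335 with sgRNA2, against 4720, 4561 and 4633 in control. It rose by a smaller step that the 6 KO libraries shared (log2 fold change 0.34, SE 0.09, adjusted p = 0.0152 in limma). The call was lost without control replicate 1, 2 or 3 (adjusted p from 0.0513 to 0.0738 in limma).

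The other 4 shuttle genes did not pass. Slc25a20, the carnitine-acylcarnitine carrier of the inner membrane, had 1542, 1454 and 1478 with sgRNA1 and 1317, 1262 and 2809 with sgRNA2, against 1282, 1216 and 1236 in control. Here sgRNA2 KO replicate 3 stood far above the other KO libraries, whose lowest value lay within the control range (log2 fold change 0.34, SE 0.23, adjusted p = 0.251 in limma). Cpt2, which rebuilds acyl-CoA on the matrix side, averaged 1308 ± 223 in KO (SD, n = 6) and 1081 ± 60.0 in control (SD, n = 3), with a log2 fold change of 0.26 (adjusted p = 0.237) in limma. It passed without sgRNA1 KO replicate 3 (adjusted p = 0.0325 in limma), at a log2 fold change of 0.36. The brain isoform gene Cpt1c and the peroxisomal carnitine octanoyltransferase gene Crot had log2 fold changes of 0.06 (adjusted p = 0.847) and 0.11 (adjusted p = 0.509) in limma, with KO and control overlapping for both.

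Acyl-CoA dehydrogenases open each round of the mitochondrial cycle, and their genes all rose: Acadvl for very long, Acadl for long, Acadm for medium and Acads for short chains. Acadl, the most abundant of the 43 genes per kilobase, had 24003, 22608 and 20399 with sgRNA1 and 19706, 21782 and 20188 with sgRNA2, against 15895, 16207 and 16337 in control. The KO libraries formed a narrow band above the controls (log2 fold change 0.41, SE 0.09, adjusted p = 0.00854 in limma). Acadvl had 3381, 2663 and 3016 with sgRNA1 and 2951, 3148 and 3965 with sgRNA2, against 2095, 2025 and 2107 in control. It was highest in sgRNA2 KO replicate 3, and the groups did not overlap (log2 fold change 0.61, SE 0.13, adjusted p = 0.00614 in limma). The exons of Acadvl overlap those of Dvl2 on the opposite strand, so reads of this gene cannot be assigned with certainty if the libraries did not keep the strand.

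Acads had 4334, 3478 and 3653 with sgRNA1 and 3602, 3689 and 2877 with sgRNA2, against 2376, 2256 and 2401 in control. KO and control did not overlap (log2 fold change 0.61, SE 0.12, adjusted p = 0.00561 in limma). Acadm had 4860, 4121 and 3709 with sgRNA1 and 3522, 4062 and 2854 with sgRNA2, against 2835, 2645 and 2606 in control. In sgRNA2 KO replicate 3 it stood just above the highest control, while the other KO libraries were well above (log2 fold change 0.50, SE 0.15, adjusted p = 0.0277 in limma). Its call was lost without sgRNA2 KO replicate 2 or control replicate 1, 2 or 3 (adjusted p from 0.0556 to 0.100 in limma).

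The electrons these enzymes take up pass through the electron transfer flavoprotein, made of the products of Etfa and Etfb, to the ubiquinone oxidoreductase encoded by Etfdh. Etfdh had 7780, 6312 and 5606 with sgRNA1 and 5215, 7047 and 4440 with sgRNA2, against 4080, 3834 and 3712 in control. Every KO library was above the controls, sgRNA2 KO replicate 3 by the least (log2 fold change 0.62, SE 0.17, adjusted p = 0.0170 in limma). Its call was lost without control replicate 2 or 3 (adjusted p from 0.0680 to 0.0716 in limma). Etfa averaged 4322 ± 754 in KO (SD, n = 6) and 3750 ± 89.6 in control (SD, n = 3). Etfb averaged 393 ± 110 in KO (SD, n = 6) and 331 ± 16.2 in control (SD, n = 3). Neither passed, with log2 fold changes of 0.19 (adjusted p = 0.342) and 0.21 (adjusted p = 0.444) in limma. Of the distinct 50-base stretches in Etfb transcripts, 44.8% also occur in transcripts of other genes, chiefly Gm45233 on the same strand, so its level is uncertain.

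In the later mitochondrial steps, the subunits of the trifunctional protein come from a pair of neighboring genes, Hadha and Hadhb. Hadha, the subunit with hydratase and dehydrogenase activity, had 16000, 15016 and 11790 with sgRNA1 and 10975, 14624 and 15818 with sgRNA2, against 9224, 8679 and 8806 in control. KO and control did not overlap (log2 fold change 0.64, SE 0.14, adjusted p = 0.00696 in limma). Hadhb, the thiolase subunit, had 1167, 1034 and 1053 with sgRNA1 and 1045, 1017 and 839 with sgRNA2, against 878, 908 and 780 in control. The groups overlapped (log2 fold change 0.26, SE 0.13, adjusted p = 0.125 in limma). It passed without sgRNA2 KO replicate 3 (adjusted p = 0.0244 in limma). The difference between the changes of the subunit genes was not tested. Of the 50-base stretches in Hadhb transcripts, 19.7% also occur in other genes, chiefly Gm13910, against 0.34% in Hadha, so reads of Hadhb may have been split or dropped.

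Echs1, the short-chain enoyl-CoA hydratase gene, had 6384, 6116 and 5607 with sgRNA1 and 5088, 5565 and 8962 with sgRNA2, against 3956, 3732 and 3551 in control. It was highest by far in sgRNA2 KO replicate 3 (log2 fold change 0.72, SE 0.16, adjusted p = 0.00876 in limma). Without that library its log2 fold change was 0.61 (adjusted p = 0.00209) in limma. Acaa2, the gene of the mitochondrial thiolase that closes the round, had 7043, 5997 and 4053 with sgRNA1 and 4000, 5850 and 5422 with sgRNA2, against 3278, 3071 and 2910 in control. No KO library overlapped the controls (log2 fold change 0.78, SE 0.18, adjusted p = 0.0101 in limma). Its call was lost without control replicate 3 (adjusted p = 0.0505 in limma). Hadh, the short-chain hydroxyacyl-CoA dehydrogenase gene, stood at 6727 ± 477 in KO (SD, n = 6) and 6199 ± 102 in control (SD, n = 3), with a log2 fold change of 0.12 (adjusted p = 0.323) in limma.

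Unsaturated chains need auxiliary enzymes, and the mitochondrial ones varied among KO libraries. Decr1, the dienoyl-CoA reductase gene, had 2054, 2636 and 1142 with sgRNA1 and 849, 1973 and 1011 with sgRNA2, against 1336, 1204 and 1244 in control. It was above all controls in sgRNA1 KO replicates 1 and 2 and sgRNA2 KO replicate 2 and below all controls in the other 3 KO libraries (log2 fold change 0.23, SE 0.34, adjusted p = 0.613 in limma). Eci1, the enoyl-CoA isomerase gene, had 1854, 1709 and 2154 with sgRNA1 and 2019, 1957 and 3607 with sgRNA2, against 1731, 1872 and 1767 in control. Replicate 3 of sgRNA2 KO stood far above the rest (log2 fold change 0.26, SE 0.21, adjusted p = 0.341 in limma).

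Peroxisomal oxidation held the largest rises of the set, those of Acaa1a and Eci2. Acaa1a, the peroxisomal thiolase gene (ENSMUSG00000036138, chromosome 9, 119339676 to 119350299), had 2287, 2141 and 1770 with sgRNA1 and 1754, 2046 and 1530 with sgRNA2, against 1086, 978 and 972 in control. Every KO library was above every control, and sgRNA2 KO replicate 3 was the lowest of them (log2 fold change 0.91, SE 0.14, adjusted p = 0.00192 in limma). Of the 50-base stretches in its transcripts, 17.1% also occur in other genes, chiefly its near copy Acaa1b, which had 79, 70 and 56 with sgRNA1 and 68, 75 and 62 with sgRNA2, against 43, 39 and 40 in control, so the level of Acaa1a is uncertain by the reads that fit both. Eci2, the isomerase gene of the peroxisome (ENSMUSG00000021417, chromosome 13, 34977748 to 35027096), had 8011, 6970 and 4780 with sgRNA1 and 4304, 6808 and 5646 with sgRNA2, against 3384, 3112 and 3070 in control. Again every KO library was above the controls (log2 fold change 0.90, SE 0.19, adjusted p = 0.00671 in limma). Of the 50-base stretches in Eci2 transcripts, 11.1% also occur in other genes, among them Gm15280 and Gm15287.

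Acox3, which encodes an acyl-CoA oxidase for branched chains (ENSMUSG00000029098, chromosome 5, 35583040 to 35615352), had 2116, 1927 and 1277 with sgRNA1 and 1348, 1795 and 1550 with sgRNA2, against 1049, 878 and 906 in control. Its KO libraries nearest the controls were sgRNA1 KO replicate 3 and sgRNA2 KO replicate 1 (log2 fold change 0.80, SE 0.18, adjusted p = 0.00756 in limma). The exons of Acox3 overlap the antisense gene 4931431C16Rik over 700 bases. Hsd17b4, the gene of the bifunctional enzyme that hydrates and dehydrogenates the oxidase product, had 12548, 11637 and 11536 with sgRNA1 and 10810, 12014 and 9879 with sgRNA2, against 7915, 7587 and 8007 in control. All KO libraries lay above all controls, sgRNA2 KO replicate 3 by the least (log2 fold change 0.54, SE 0.10, adjusted p = 0.00344 in limma). Cat, the catalase gene (ENSMUSG00000027187, chromosome 2, 103453849 to 103485160), had 10105, 10046 and 5780 with sgRNA1 and 5233, 8148 and 5993 with sgRNA2, against 4596, 4392 and 4410 in control. It was highest in sgRNA1 KO replicates 1 and 2 and nearest the controls in sgRNA2 KO replicate 1 (log2 fold change 0.71, SE 0.22, adjusted p = 0.0318 in limma). The call for Cat was lost without sgRNA2 KO replicate 2 or control replicate 1, 2 or 3 (adjusted p from 0.0622 to 0.103 in limma).

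Scp2, which encodes a peroxisomal thiolase and sterol carrier, had 3302, 3075 and 2054 with sgRNA1 and 1974, 2624 and 1885 with sgRNA2, against 1802, 1686 and 1642 in control. KO and control did not overlap, yet it missed the threshold (log2 fold change 0.51, SE 0.19, adjusted p = 0.0621 in limma). It passed without sgRNA2 KO replicate 1 or 3 (adjusted p from 0.0304 to 0.0452 in limma), and without both libraries nearest the controls. It also passed in sgRNA1 KO alone (log2 fold change 0.69, SE 0.20, adjusted p = 0.0297 in limma). Of the 50-base stretches of Scp2, 29.7% also occur in other genes, chiefly the pseudogene Scp2-ps2. Abcd3, a peroxisomal membrane transporter gene, had 14518, 14273 and 13531 with sgRNA1 and 12423, 14000 and 11904 with sgRNA2, against 11394, 11145 and 11249 in control. Each KO library was slightly above the controls (log2 fold change 0.25, SE 0.09, adjusted p = 0.0550 in limma). It passed in sgRNA1 KO (log2 fold change 0.32, SE 0.10, adjusted p = 0.0377 in limma) and in the pooled comparison without sgRNA2 KO replicate 1 or 3 (adjusted p from 0.0140 to 0.0484 in limma).

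Abcd2, a second transporter gene of the same family, had 537, 524 and 211 with sgRNA1 and 292, 379 and 188 with sgRNA2, against 427, 319 and 339 in control. It was above all controls in sgRNA1 KO replicates 1 and 2 and below all controls in sgRNA1 KO replicate 3, sgRNA2 KO replicate 1 and sgRNA2 KO replicate 3 (log2 fold change -0.13, SE 0.35, adjusted p = 0.785 in limma). Ehhadh, the gene of the other bifunctional enzyme, was near the limit of detection, with 0, 4 and 37 with sgRNA1 and 19, 19 and 6 with sgRNA2, against 23, 15 and 15 in control. The count of 0 in sgRNA1 KO replicate 1 allows up to 3 normalized read counts, and the values of Ehhadh went both ways among KO libraries (log2 fold change -1.02, SE 0.98, adjusted p = 0.423 in limma).

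**Figure D2:**
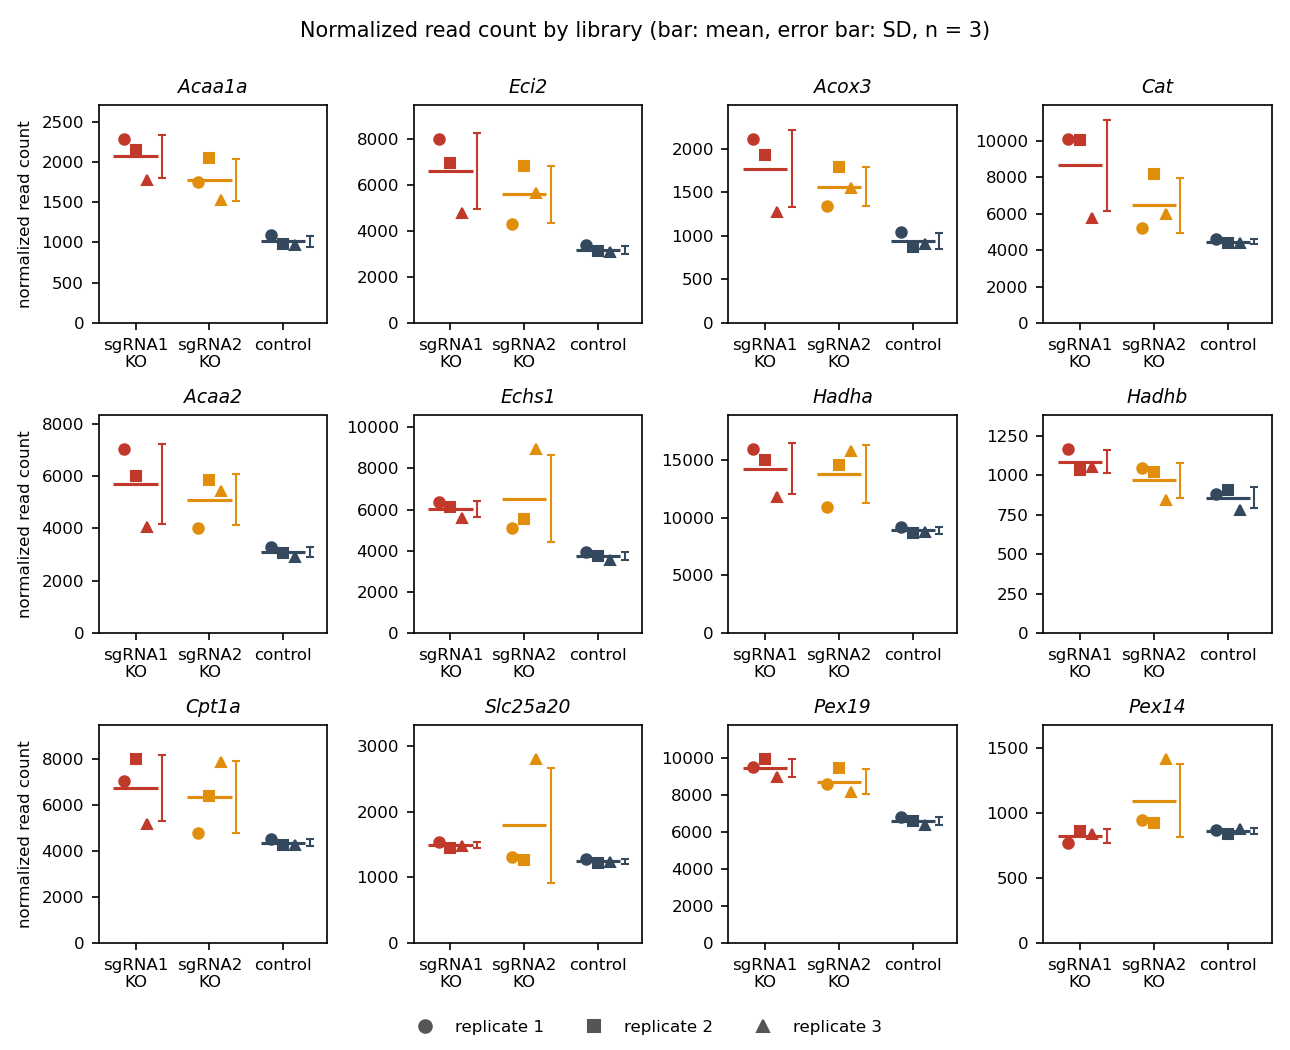
Normalized read count (vertical axes, from 0) of 12 genes in sgRNA1 KO, sgRNA2 KO and control; symbols mark replicates, horizontal bars means and error bars SD (n = 3). Acaa1a, Eci2, Acox3, Cat, Acaa2, Echs1, Hadha, Cpt1a and Pex19 have every KO library above every control, while Hadhb, Slc25a20 and Pex14 overlap, and sgRNA2 KO replicate 3 (triangle) is highest for Echs1, Slc25a20 and Pex14.

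Promoter sequences, of 250 bases before to 50 after the annotated start, were matched for 36 of the 43 genes (RefSeq, GRCm38.p6). The promoters of Acaa1a, Eci2 and Cat are shown because these are among the most risen genes, and that of Ppara because it is the most risen regulator. Starts are those of RefSeq, and all 4 lie inside the span of the GENCODE gene. All are written 5′ to 3′ on the strand of the gene, with capitals marking the GC box GGGCGG on either strand and, in Cat, also the nuclear receptor site AGGTCA. The promoter of Acaa1a lies at chr9:119341044-119341343 on the plus strand, that of Eci2 at chr13:34994095-34994394 on the minus strand, that of Cat at chr2:103485104-103485403 on the minus strand and that of Ppara at chr15:85735526-85735825 on the plus strand.
Acaa1a: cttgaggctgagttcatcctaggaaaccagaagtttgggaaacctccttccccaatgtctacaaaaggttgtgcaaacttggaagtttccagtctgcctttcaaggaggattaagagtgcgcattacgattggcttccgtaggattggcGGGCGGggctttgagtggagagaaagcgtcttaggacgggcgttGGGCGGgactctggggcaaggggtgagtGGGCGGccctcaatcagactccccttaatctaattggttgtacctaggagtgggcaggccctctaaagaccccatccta
Eci2: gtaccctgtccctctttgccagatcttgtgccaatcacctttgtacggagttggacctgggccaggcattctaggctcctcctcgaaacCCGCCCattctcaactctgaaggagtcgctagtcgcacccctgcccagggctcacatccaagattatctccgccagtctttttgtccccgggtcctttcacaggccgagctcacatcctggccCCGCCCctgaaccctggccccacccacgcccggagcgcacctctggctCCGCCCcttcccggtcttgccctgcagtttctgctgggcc
Cat: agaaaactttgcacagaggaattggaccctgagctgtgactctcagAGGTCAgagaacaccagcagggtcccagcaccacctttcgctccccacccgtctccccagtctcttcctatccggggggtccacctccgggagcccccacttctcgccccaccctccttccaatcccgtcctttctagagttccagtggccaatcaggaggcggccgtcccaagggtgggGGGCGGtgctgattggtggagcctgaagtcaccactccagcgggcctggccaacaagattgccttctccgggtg
Ppara: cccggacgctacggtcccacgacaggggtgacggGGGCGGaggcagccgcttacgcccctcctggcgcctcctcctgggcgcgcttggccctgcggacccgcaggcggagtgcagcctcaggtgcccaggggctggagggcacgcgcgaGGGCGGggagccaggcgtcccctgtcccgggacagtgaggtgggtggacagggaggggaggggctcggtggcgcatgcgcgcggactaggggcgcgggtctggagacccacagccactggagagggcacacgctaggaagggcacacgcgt

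The GC box was present in 30 of the 36 matched genes (83.3%), against 68.0% of 10884 tested genes with a promoter sequence and 38.2% of all 27025 genes with one. It was found in 12 of 15 genes that rose (80.0%) and in 18 of 21 that were not called (85.7%). AGGTCA, the core bound by PPARs and other nuclear receptors, was found on either strand in 7 of the 36 (19.4%), against 14.4% of tested genes and 18.1% of all. Those 7 were 5 of the 15 risen and 2 of the 21 uncalled genes. The PPAR direct repeat, 2 such cores with 1 base between them, was found in 0 of the 36, in 3 of the 10884 tested genes and in 13 of all 27025. The core site of the respiratory factor NRF1 was found in 5 of 36 (13.9%), against 1202 of the 10884 tested genes (11%) and 5.2% of all genes with a sequence. The E-box CACGTG was found in 0 of 36, against 11.4% of tested genes and 8.1% of all. Matches are descriptions of these windows, and enhancers farther away were not searched.

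Of the 11 peroxins, 2 rose (18.2%, near the 19.1% of all genes tested) and 0 fell, and their median log2 fold change was 0.19. Pex19, the cytosolic chaperone that delivers membrane proteins to the peroxisome, was the most abundant peroxin per kilobase. It had 9499, 9966 and 8977 with sgRNA1 and 8575, 9445 and 8139 with sgRNA2, against 6810, 6611 and 6361 in control. No KO library overlapped the controls (log2 fold change 0.46, SE 0.09, adjusted p = 0.00526 in limma). Pex7, the receptor that brings in enzymes with an amino-terminal signal such as the thiolase, averaged 1469 ± 92.6 in KO (SD, n = 6) and 1086 ± 69.5 in control (SD, n = 3) (log2 fold change 0.43, SE 0.10, adjusted p = 0.00986 in limma), and was lost without control replicate 2 or 3 (adjusted p from 0.0504 to 0.0610 in limma). Pex5, the receptor for the more common carboxy-terminal signal, had 2858, 2219 and 2137 with sgRNA1 and 2253, 2493 and 2000 with sgRNA2, against 1888, 1762 and 1880 in control. All KO libraries were above all controls, by little in sgRNA2 KO replicate 3, and Pex5 missed the threshold (log2 fold change 0.33, SE 0.12, adjusted p = 0.0587 in limma). It passed without sgRNA2 KO replicate 3 (adjusted p = 0.0237 in limma).

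Pex3 and Pex16 act with Pex19 in membrane assembly. Pex3 averaged 1360 ± 105 in KO (SD, n = 6) and 1116 ± 42.4 in control (SD, n = 3), with a log2 fold change of 0.28 (adjusted p = 0.0571) in limma, and passed without sgRNA2 KO replicate 3 (adjusted p = 0.0162 in limma). Pex16 had 590, 680 and 656 with sgRNA1 and 641, 647 and 1026 with sgRNA2, against 557, 546 and 551 in control. Again sgRNA2 KO replicate 3 was far above the others (log2 fold change 0.33, SE 0.17, adjusted p = 0.150 in limma). Both had no overlap between KO and control.

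The docking complex genes Pex13 and Pex14 had log2 fold changes of 0.19 (adjusted p = 0.326) and 0.12 (adjusted p = 0.605) in limma. Pex14 had 767, 866 and 842 with sgRNA1 and 945, 922 and 1419 with sgRNA2, against 869, 838 and 881 in control. Only sgRNA2 KO replicate 3 was far above the controls. The exons of Pex14 overlap the antisense gene Gm17029 over 1776 bases. The ubiquitin ligase genes Pex2 and Pex10, the recycling ATPase gene Pex6 and the peroxisome division gene Pex11a also overlapped between KO and control, with log2 fold changes between -0.02 for Pex10 and 0.11 for Pex2.

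**Figure D3:**
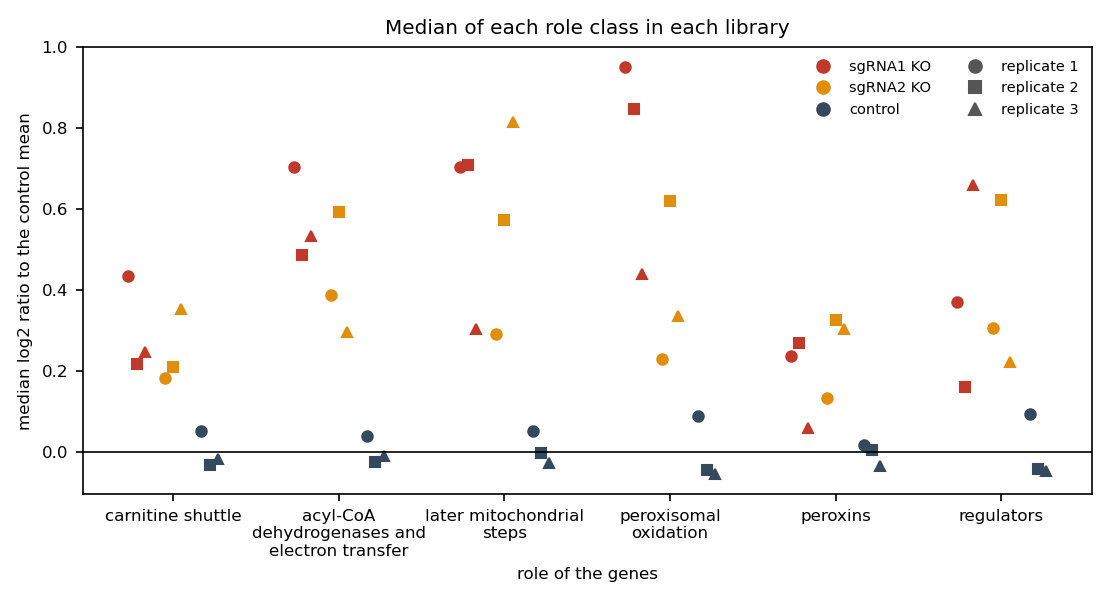
Median log2 ratio to the control mean over the genes of each role (horizontal axis) with each point a library; colors are groups and symbols replicates. Peroxisomal oxidation spans 0.23 to 0.95 in the KO libraries, and peroxins span 0.06 to 0.32.

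Among the regulators, Ppara, the nuclear receptor that drives fatty acid oxidation genes in liver (ENSMUSG00000022383, chromosome 15, 85734983 to 85802819), had 347, 245 and 285 with sgRNA1 and 306, 305 and 456 with sgRNA2, against 196, 163 and 169 in control. Every KO library was above every control, and sgRNA2 KO replicate 3 was the highest (log2 fold change 0.85, SE 0.20, adjusted p = 0.00964 in limma). The call was lost without control replicate 2 (adjusted p = 0.0534 in limma). Ppard, the more widely expressed receptor of the family, had 1376, 1175 and 1528 with sgRNA1 and 1478, 1360 and 1330 with sgRNA2, against 1302, 1185 and 1181 in control. The groups overlapped (log2 fold change 0.17, SE 0.11, adjusted p = 0.258 in limma). Ppargc1a, the coactivator gene, had 2905, 2512 and 3552 with sgRNA1 and 2780, 3460 and 2620 with sgRNA2, against 2261, 2227 and 2257 in control. It was above the controls in all KO libraries and highest in sgRNA1 KO replicate 3 (log2 fold change 0.39, SE 0.13, adjusted p = 0.0389 in limma). Its call was lost without sgRNA1 KO replicate 1 or 3, sgRNA2 KO replicate 2 or control replicate 1, 2 or 3 (adjusted p from 0.0534 to 0.123 in limma), and without both libraries nearest the controls. It was also lost with no filter on low values and with the replicate number as a block.

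A list of 30 partners, opponents and targets of the PPARs, also chosen with earlier results known, had 22 genes tested. Of these, 1 rose (4.55%, against 19.1% of all genes tested) and 4 fell (18.2%, near the 20.2% of all genes tested), with a median log2 fold change of 0.03. Plin2, which coats lipid droplets, averaged 3154 ± 626 in KO (SD, n = 6) and 2267 ± 80.7 in control (SD, n = 3) (log2 fold change 0.45, SE 0.16, adjusted p = 0.0480 in limma), and missed without sgRNA1 KO replicate 1 or 2, sgRNA2 KO replicate 2 or 3 or control replicate 1, 2 or 3 (adjusted p from 0.0511 to 0.152 in limma). Ucp2, a mitochondrial carrier gene, fell, with 119, 133 and 68 with sgRNA1 and 115, 96 and 54 with sgRNA2, against 339, 304 and 334 in control (log2 fold change -1.80, SE 0.29, adjusted p = 0.00236 in limma). Prkaa1, a catalytic subunit gene of the AMP-activated kinase, also fell, averaging 2633 ± 307 in KO (SD, n = 6) and 3770 ± 207 in control (SD, n = 3) (log2 fold change -0.52, SE 0.12, adjusted p = 0.00835 in limma). The other genes that fell were Bdh1 and Acaca. Bdh1, of ketone body use, had a log2 fold change of -1.96 (adjusted p = 0.0175) in limma. Acaca, whose enzyme makes the malonyl-CoA that inhibits the product of Cpt1a, had -0.40 (adjusted p = 0.0498) in limma. Both calls were lost when any 1 of the 3 controls was left out, so that 2 genes fell, and that of Acaca also under most other settings tried. The count of 1 that rose became 2 without sgRNA2 KO replicate 1, when 20.3% of all genes were called higher. It became 0 without sgRNA1 KO replicate 1 or 2, sgRNA2 KO replicate 2 or any 1 control. Of all genes, 16.9%, 17.4% and 15.4% were called higher without these KO libraries in turn. Without control replicates 1, 2 and 3 in turn, 12.8%, 9.26% and 9.85% were called higher and 11.9%, 8.29% and 9.14% lower.

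**Figure D4:**
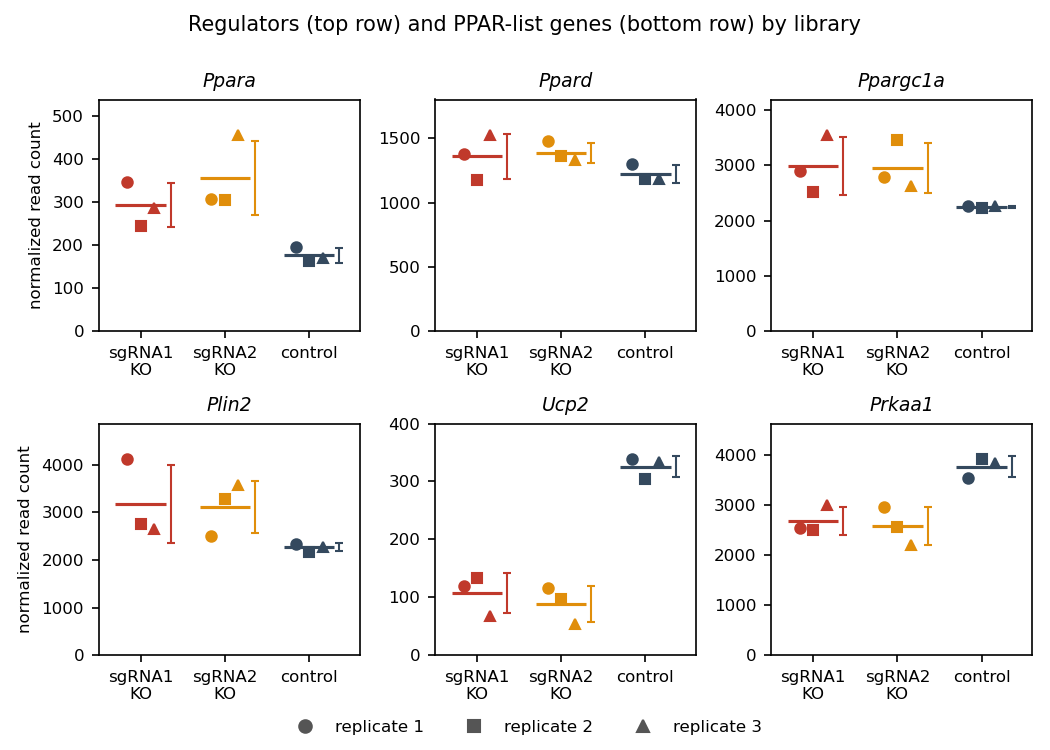
Normalized read count (vertical axes, from 0) of the regulators Ppara, Ppard and Ppargc1a and of Plin2, Ucp2 and Prkaa1 in sgRNA1 KO, sgRNA2 KO and control; symbols mark replicates, bars means and error bars SD (n = 3). Ppara lies between 245 and 456 in KO and between 163 and 196 in control, while Ucp2 is lower in every KO library.

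A list of further fatty acid oxidation genes outside the 43 also held related genes of amino acid breakdown, such as Ivd. Of 23 listed, 18 were tested, of which 10 rose (55.6%, against 19.1% of all genes tested) and 0 fell (against 20.2%), with a median log2 fold change of 0.66. Acad11, an acyl-CoA dehydrogenase gene, averaged 2011 ± 275 in KO (SD, n = 6) and 849 ± 87.5 in control (SD, n = 3) (log2 fold change 1.24, SE 0.14, adjusted p = 0.000634 in limma). Ivd, of leucine breakdown, averaged 6139 ± 755 in KO (SD, n = 6) and 3623 ± 103 in control (SD, n = 3) (log2 fold change 0.75, SE 0.12, adjusted p = 0.00191 in limma). Named after its values were seen, Ech1, a dienoyl-CoA isomerase gene, had 5400, 4246 and 3171 with sgRNA1 and 3104, 4149 and 5911 with sgRNA2, against 1793, 1692 and 1620 in control (log2 fold change 1.31, SE 0.21, adjusted p = 0.00224 in limma). The count of 10 became 5 without control replicate 2 and 6 without control replicate 3, when 9.26% and 9.85% of all genes were called higher.

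Acyl-CoA synthetase, fatty acid transporter and thioesterase genes load and unload the coenzyme. Of 25 listed, 20 were tested, of which 8 rose and 4 fell, with a median log2 fold change of 0.30. These are 40% higher and 20% lower, against 19.1% and 20.2% of all genes tested, so the share that fell was that of the background. The transporter gene Slc27a1 averaged 10970 ± 2292 in KO (SD, n = 6) and 3497 ± 259 in control (SD, n = 3) (log2 fold change 1.62, SE 0.18, adjusted p = 0.000529 in limma). The synthetase gene Acsf2 averaged 1350 ± 305 in KO (SD, n = 6) and 523 ± 55.7 in control (SD, n = 3) (log2 fold change 1.35, SE 0.18, adjusted p = 0.00111 in limma). The thioesterase gene Acot7 fell, averaging 566 ± 207 in KO (SD, n = 6) and 1571 ± 100 in control (SD, n = 3) (log2 fold change -1.55, SE 0.29, adjusted p = 0.00411 in limma). Acsl4, the synthetase gene for arachidonic acid, fell too, averaging 1842 ± 658 in KO (SD, n = 6) and 4287 ± 475 in control (SD, n = 3) (log2 fold change -1.29, SE 0.28, adjusted p = 0.00760 in limma).

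Of 39 other peroxisome genes, 32 were tested, of which 13 rose (40.6%, against 19.1% of all genes tested) and 3 fell (9.38%, against 20.2%), with a median log2 fold change of 0.33. Pxmp4, a membrane protein gene, averaged 746 ± 132 in KO (SD, n = 6) and 253 ± 20.6 in control (SD, n = 3) (log2 fold change 1.54, SE 0.17, adjusted p = 0.000521 in limma). Abcd4, a transporter gene whose product is known mainly from lysosomes, averaged 1852 ± 205 in KO (SD, n = 6) and 1028 ± 89.3 in control (SD, n = 3) (log2 fold change 0.85, SE 0.12, adjusted p = 0.00147 in limma). Agps and Gnpat, which encode the peroxisomal enzymes that start ether lipid synthesis, both fell: Agps averaged 3790 ± 460 in KO (SD, n = 6) and 5425 ± 232 in control (SD, n = 3) (log2 fold change -0.53, SE 0.12, adjusted p = 0.00875 in limma). Gnpat averaged 4442 ± 588 in KO (SD, n = 6) and 5870 ± 188 in control (SD, n = 3) (log2 fold change -0.41, SE 0.12, adjusted p = 0.0234 in limma). The call for Gnpat was lost without control replicate 1, 2 or 3 (adjusted p from 0.0618 to 0.0969 in limma). Without control replicate 2 or 3, 8 of the 32 rose and 1 fell. Of all genes, 9.26% and 9.85% were then called higher and 8.29% and 9.14% lower. Without control replicate 1, 1 fell, against 11.9% of all genes. Without sgRNA2 KO replicate 3, 6 fell, against 25% of all genes.

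Each guide was also set against the same 3 controls, so that the comparisons share them. With sgRNA1, 18 of the 43 genes rose and 0 fell, against 17.1% of all genes higher and 18.9% lower. All libraries of sgRNA1 KO lay above all controls for 28 of the 43, against 28.5% of all genes, and below them for 0, against 32.0%. With sgRNA2, 14 rose and 0 fell, against 11.4% higher and 10.7% lower. All libraries of sgRNA2 KO lay above all controls for 30 of the 43, against 26.3% of all genes, and below them for 0, against 28.3%. Acaa1a had the largest log2 fold change among the called genes with sgRNA1, at 1.02 (SE 0.15, adjusted p = 0.00484 in limma). Its value with sgRNA2 was 0.80 (adjusted p = 0.0115). Ppara had the largest log2 fold change among those called with sgRNA2, at 0.99 (SE 0.22, adjusted p = 0.0192 in limma). Its value with sgRNA1 was 0.72 (adjusted p = 0.0362).

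The counts of each guide changed when single libraries were left out. The count of 18 with sgRNA1 became 10, 2 and 3 when control replicates 1, 2 and 3 were left out in turn. It became 5 without sgRNA1 KO replicate 1, and 7 when replicate 2 of that guide was left out. Calls over all genes fell too, to 17.8%, 8.01% and 9.74% without the controls and to 12.3% and 14.8% without the sgRNA1 KO libraries, against 36% with all. The median log2 fold change of the 43 genes with sgRNA1 was 0.364, 0.355 and 0.323 without control replicates 1, 2 and 3. It was 0.303 and 0.377 without sgRNA1 KO replicates 1 and 2, against 0.343 with all. Without sgRNA1 KO replicate 3, 21 rose, and Ehhadh was called lower (log2 -3.03, adjusted p = 0.00920 in limma). In that fit 23.6% of all genes were called higher and 26.3% lower. The count of 14 with sgRNA2 became 1, 0 and 0 when control replicates 1, 2 and 3 were left out in turn, and 3 without sgRNA2 KO replicate 2. In both cases of 0 in limma, 14 of the 43 had an unadjusted p under 0.05. With all libraries, 18 of the 43 and 6206 of the 15827 genes tested had one with sgRNA2. The share of all genes without a control was not computed, so the 14 cannot be set against it. Calls over all genes fell to 8.34%, 4.06% and 4.35% without the controls and to 9.04% without sgRNA2 KO replicate 2, against 22.1% with all.

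Between the guides, 0 of the 43 genes and 0 of all 15827 genes passed in limma. An unadjusted p under 0.05 was reached by 1 of the 43 and by 474 of all genes. That gene was Cpt1c, with 3853, 2729 and 2344 in sgRNA1 KO, against 2409, 1739 and 2136 in sgRNA2 KO (log2 difference 0.49, SE 0.20, adjusted p = 0.778 in limma). The median log2 difference of sgRNA1 KO minus sgRNA2 KO over the 43 genes was 0.09, against -0.01 over all genes tested. The libraries of the guides did not overlap for Pex14 alone, which was lower with sgRNA1, while 1.79% of all genes were lower and 1.90% higher without overlap. The lack of calls does not show that the guides act alike.

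**Figure D5:**
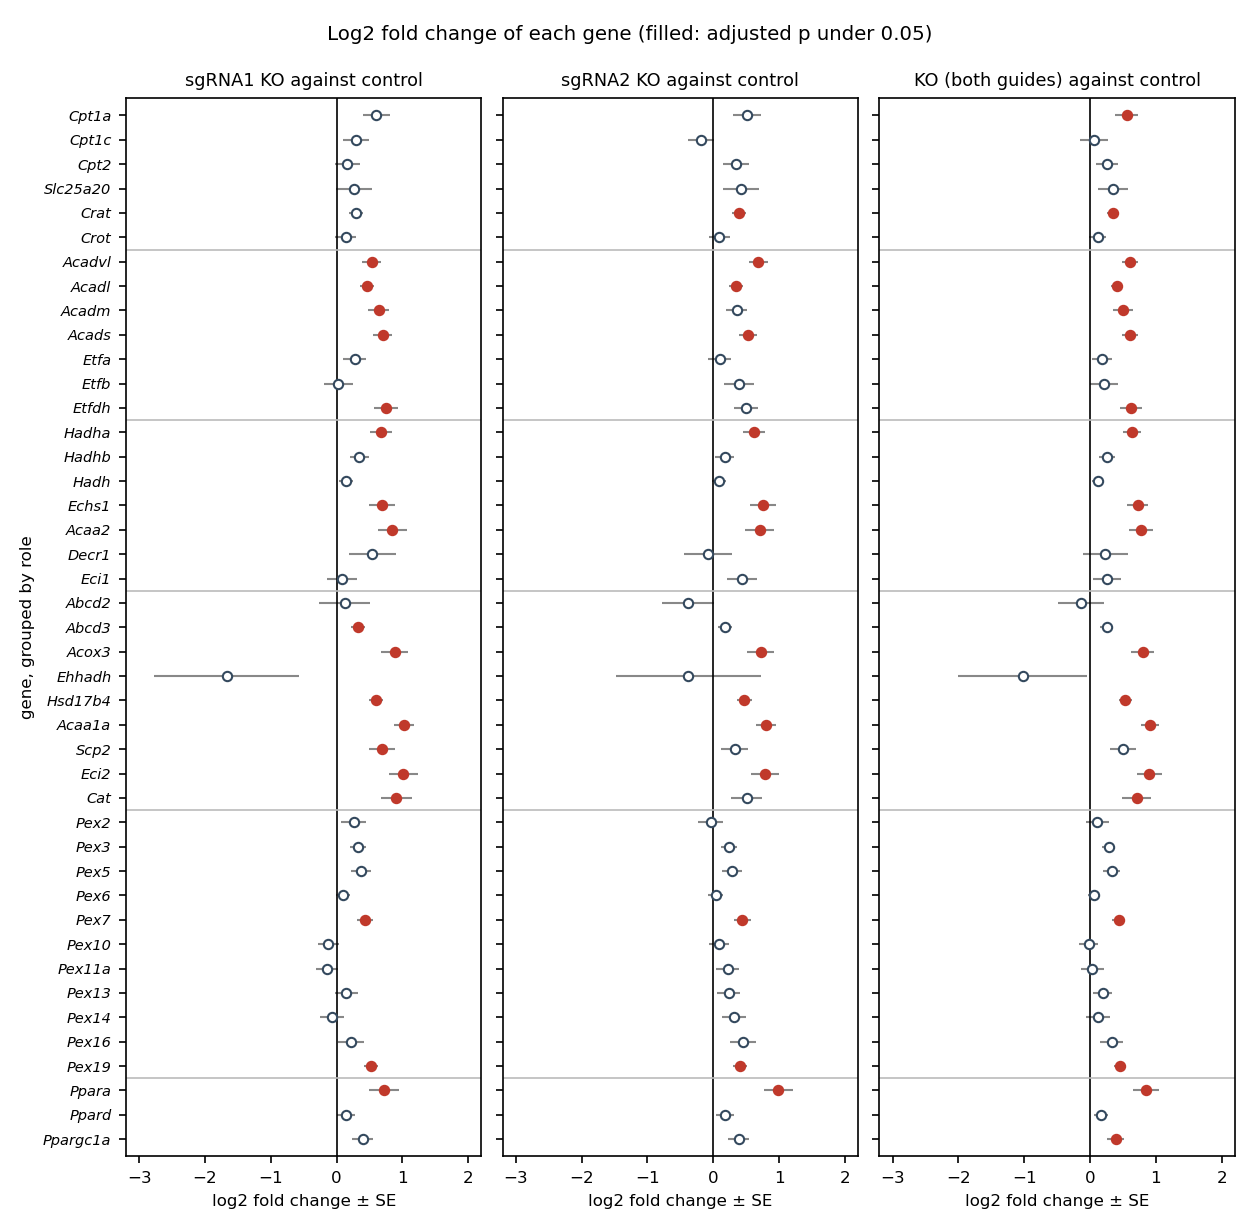
Log2 fold change with SE (horizontal axes) of each of the 43 genes, grouped by role, for sgRNA1 KO, sgRNA2 KO and both guides pooled, each against control; filled points passed an adjusted p of 0.05. Filled points lie to the right of 0 in all panels, numbering 18, 14 and 19.

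The KO libraries differed in which genes stood highest. Of the 43 genes, 19 had their highest value of all 9 libraries in sgRNA1 KO replicate 1, 11 in sgRNA2 KO replicate 3, 6 in sgRNA1 KO replicate 3, 4 in sgRNA1 KO replicate 2, 3 in sgRNA2 KO replicate 2 and 0 in sgRNA2 KO replicate 1 or any control. The number of genes at least 1.5-fold above their control mean was 18, 13 and 6 in sgRNA1 KO replicates 1 to 3 and 3, 15 and 15 in sgRNA2 KO replicates 1 to 3. The matching shares of all genes were not computed for either kind of count. Neither can therefore be called particular to the 43 genes. The median log2 ratio to the control mean was 0.51, 0.34 and 0.32 with sgRNA1 and 0.27, 0.43 and 0.30 with sgRNA2, against -0.03 to 0.04 in control. Among the 43, the fewest genes past 1.5-fold were in sgRNA2 KO replicate 1 and sgRNA1 KO replicate 3, the KO libraries nearest the controls across all genes. In these libraries, summed proliferation markers stood at 104869 and 105358, against 23825 to 73056 in the other 4 KO libraries, and summed astrocyte markers at 179930 and 174706, against 244514 to 358694. Whether these shifts bear on the 43 genes was not tested.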

How the data were processed

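Poly(A) RNA libraries of BTSC were grouped by the labels into sgRNA1 KO, sgRNA2 KO and control. The submitters' processing notes name the build mm10 and the tools STAR (version 2.4.1d), featureCounts and DESeq2; the annotation and strand setting are not given in the sources used here. The deposited values are scores: per the values themselves, read counts that the authors had divided by a size factor for each library and rounded. Raw counts were not used here, and no count model was run. After a log2(value + 1) transform, which understates changes of low genes, limma 3.58.1 in R 4.3.3 was run with a trended prior on the 15827 genes whose mean reached 10. Tests were two-sided, with p-values adjusted by Benjamini and Hochberg and a threshold of 0.05. KO against control used 2 groups, and the guides shared a fit of 3 groups. The steps were run on simulated data in which each gene had the same spread in all groups. The simulation therefore does not cover the larger spread of the KO libraries.

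The 43 genes, their roles and the companion and marker lists were chosen with earlier results of these data known, so no list test is given. Values in each library are given for genes called with a log2 fold change of at least 0.5 in any comparison with control, for the highest gene of each role and for the regulators; further genes were named after their values were seen. From companion lists, up to 2 genes that rose and 2 that fell were taken by smallest p. Positions, exons and shared 50-base stretches came from GENCODE M21, whose IDs matched 99.6% of genes. Other settings tried were pseudocounts of 0.5 and 5, no filter or a mean of at least 50, quantile normalization, rescaling by median ratios, group-wise variance weights, the replicate number as a block, fits of the compared groups alone, each library left out, and both libraries nearest the controls left out. The companion lists were added to these after the data were seen. Tables and figures used Python 3.11.15, numpy 2.4.6, pandas 2.3.3 and matplotlib 3.10.9.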

Additional observations from a re-analysis of the deposited data

Results flagged for a closer look

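Chance alone sets 1 library apart in about 1 in 20 groups of this size by the gap measure used, Dixon's test, which divides the distance from the extreme value to its nearest neighbor by the range of the 6 KO libraries. Of the 43 genes, 6 exceeded its 95% limit, all through a high value in sgRNA2 KO replicate 3. Slc25a20, the carnitine-acylcarnitine carrier gene, had 2809 normalized read counts there, against 1542 in the next highest KO library. Etfb, of the electron transfer flavoprotein, had 610 against 386, Echs1, the enoyl-CoA hydratase gene, had 8962 against 6384, and Eci1, the enoyl-CoA isomerase gene, had 3607 against 2154. Among the peroxins, Pex14 had 1419 against 945 and Pex16 had 1026 against 680. The 6 genes share 1 library, so these are not independent events. The share of all genes past the limit was not computed, so 6 of 43 cannot be called many for these libraries.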

How the results depend on the processing

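The number of genes called in KO against control stayed within 1.5 times of 19, from 14 to 24, under the alternatives other than leaving out control replicates 2 and 3. Over the libraries left out in turn, it ranged from 11 to 24, with 0 genes called lower in each case. Calls over all genes then ranged from 17.5% to 48%. Of the 19 genes, 10 were called under all 18 alternatives, and of the other 24, 7 were called under at least 1. With variance weights per group 24 were called, and 55.9% of all genes were, against 39.3% in the main fit. With quantile normalization 23 were called, and 38% of all genes were. The median log2 fold change of the 43 genes was then 0.448 and that with sgRNA1 0.478. That of all genes was 0.018, a shift of under 0.1. The counts with sgRNA1 ranged from 2 to 23 over the libraries left out, with 0 to 1 called lower, and those with sgRNA2 from 0 to 16. Calls over all genes ranged from 8.01% to 49.9% with sgRNA1 and from 4.06% to 34.6% with sgRNA2. Without both libraries nearest the controls, 1 gene was called lower with sgRNA1, against 27% of all genes. Deviations from the group mean correlated between -0.345 and 0.332 for same-numbered libraries and between -0.525 and 0.523 for the others. With 3 libraries in each group, this cannot settle whether the replicate numbers pair the libraries. With the replicate number as a block, 18 genes were called in KO, 16 with sgRNA1 and 5 with sgRNA2. Of all genes, 36.6%, 33.1% and 16.6% were called in these fits. Between the guides, 0 of the 43 were called under every alternative in limma, with 0 to 9 at an unadjusted p under 0.05. Gpd1 passed at -1.985 with variance weights per group and at -2.595 without both libraries nearest the controls. It also passed without sgRNA1 KO replicate 2 (adjusted p = 0.0401 in limma), sgRNA1 KO replicate 3 (0.0183) or sgRNA2 KO replicate 1 (0.0497), and ranged from -2.327 to -1.530 over the libraries left out in turn. Signs turned only for genes that were not called. Pex10 stood at 0.028 with quantile normalization, and without both libraries nearest the controls Abcd2 stood at 0.069 and Crot at -0.005. Over the libraries left out in turn, Pex10 ranged from -0.076 to 0.032, Cpt1c from -0.073 to 0.156, Abcd2 from -0.273 to 0.029 and Pex11a from -0.021 to 0.132. The cause of these changes was not tested. At 0 to 37 normalized read counts, depth limits the precision of Ehhadh, and its effect on the other genes was not tested.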
